A study of Homo sapiens with 82 samples.

Results

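The data described here are the peaks of the liver X receptor LXRA in HT29 cells, called after 2 h and after 48 h of treatment with 10 μM GW3965. They come from 4 ChIP-seq libraries, 2 for each time point, out of 82 samples in the series, and were chosen by their labels alone. HT29 is an established line of colorectal adenocarcinoma cells. GW3965 is a synthetic agonist of both liver X receptors, LXRA and LXRB. The receptor that was pulled down is a FLAG-tagged LXRA made from a transfected cDNA, in cells selected with G418 and then expanded, and the antibody was directed against FLAG. Its sites are therefore those of an added copy of the receptor, and no LXRA library from cells without agonist was used here. The series also holds peaks of JunD in cells given DMSO, the carrier of the agonist, and peaks of RNA polymerase II (RNAP2) and of acetylated lysine 27 of histone H3 (H3K27ac) with DMSO and with 10 μM GW3965 given for 24 or 48 h. LXRB after 2 and 48 h of GW3965 and PPARG after 2 and 48 h of 10 μM rosiglitazone were read alongside. Each of these groups also had 2 libraries. How long the DMSO cells of the ChIP-seq libraries were kept is not stated in their labels.

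Liver X receptors are nuclear receptors that bind DNA as partners of the retinoid X receptors and switch on genes of cholesterol efflux and fatty acid synthesis when oxysterols or synthetic agonists occupy them. Without agonist they can sit on DNA together with corepressors. JunD is a subunit of AP1, a family of factors that respond to growth signals. H3K27ac marks active promoters and enhancers, and RNAP2 marks promoters, transcribed genes and many active enhancers.

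RNA from HT29 cells of the same series was used to check the labelled cell line and the receptor genes. Among the libraries used here, the titles name the FLAG tag for LXRA alone. The RNA and the other ChIP-seq peaks may therefore come from cells without the tagged receptor. NR1H3 RNA below is not a measure of the tagged receptor. Over 16 libraries, 8 with DMSO and 8 with GW3965, 6 of 10 colorectal epithelial marker genes were at 10 CPM (library counts scaled to 1e6) or more in every library, and KRT8 lay between 7879 and 10635 CPM. The 4 fibroblast markers together came to between 2.92 and 8.62 CPM, and the 3 leukocyte markers to between 0.452 and 2.58 CPM, with CD3E at 0 throughout. NR1H3, the gene of LXRA, was at 74.2 ± 2.51 CPM with DMSO and 154 ± 7.83 with GW3965 at 24 h, and at 78.4 ± 5.99 with DMSO and 239 ± 13.0 with GW3965 at 48 h (SD, n = 4 each). The groups did not overlap at either time. NR1H2, the gene of LXRB, was at 48.3 ± 1.74 CPM with DMSO and 50.2 ± 2.55 with GW3965 at 24 h, and at 65.5 ± 2.57 and 53.3 ± 1.56 CPM at 48 h. RXRA, the gene of a partner receptor, was at 278 ± 15.6 and 280 ± 51.8 CPM at 24 h, and at 210 ± 10.7 and 275 ± 9.79 CPM at 48 h. JUND, which was looked up after the peaks had been examined, was at 112 ± 7.08 CPM with DMSO and 124 ± 22.6 with GW3965 at 24 h, and at 271 ± 19.3 and 162 ± 9.60 CPM at 48 h (SD, n = 4 each). JunD binding was measured in DMSO cells alone, so its state in treated cells was not analysed here. These levels are descriptions without a test.

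The LXRA libraries differed in size within each time point. Peaks numbered 30953 and 19356 at 2 h, and 18436 and 29263 at 48 h. The larger library was thus replicate 1 at 2 h and replicate 2 at 48 h, and the groups overlapped. Read depths were not used, so the number of peaks stands in for the depth of a library. Each peak carries a score, the log10 of the peak caller's p multiplied by -10, and the lowest scores were 100. Median scores were 240 and 211 at 2 h and 205 and 224 at 48 h. Peaks had a median width of 853 and 829 bp at 2 h and of 878 and 940 bp at 48 h, so both 48 h libraries had wider peaks than both 2 h libraries. With 2 libraries for each time point an exact permutation test cannot give a two-sided p below 0.333, and no library share below can pass a threshold in that test. The labels list 1 input library for each LXRA time point, so the input and the time point cannot be told apart.

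Some libraries of the other marks stood apart from their replicates. At 24 h of GW3965, peaks of RNAP2 replicate 1 covered 61.0% of the LXRA sites found at 2 h only and 40.5% of those found at 48 h only, whereas replicate 2 covered 29.1% and 46.3%. For H3K27ac at 24 h the corresponding shares were 37.4% and 51.2% in replicate 1 and 56.5% and 38.9% in replicate 2. The values of each replicate are therefore given below, and sites of the 24 h libraries are not used to describe a change over time.

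A site was taken as the joined span where a peak of replicate 1 met a peak of replicate 2 over 1 bp or more. By this rule 18389 LXRA sites were found at 2 h and 17326 at 48 h, on chromosomes 1 to 22 and X. Of the 2 h sites, 11784 (64.1%, 95% Wilson interval 63.4 to 64.8) overlapped a 48 h site and 6605 did not. Of the 48 h sites, 11650 (67.2%, 66.5 to 67.9) overlapped a 2 h site and 5676 did not. These intervals, like all those below, cover counting error only, and sites of 1 library are not replicates. A large part of this turnover was incomplete in the single libraries. Of the 6605 sites of 2 h only, 3195 held a peak in 1 of the 48 h libraries or more, and 3410 (51.6%) held none. Of the 5676 sites of 48 h only, 2899 held a peak in 1 of the 2 h libraries or more, and 2777 (48.9%) held none. Over all 4 libraries, the peaks formed 39816 regions, of which 11609 held a peak in every library. The counts lean on the smaller libraries. Taking all peaks of replicate 1 as the 2 h sites (without 2 h replicate 2) gave 30953 sites, of which 47.9% were kept, and taking replicate 2 alone at 48 h (without 48 h replicate 1) gave 29263 sites and kept 80.4% of the 2 h sites.

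The disagreement between time points was larger than that between replicates. With the 18436 strongest peaks of each library, between 81.5% and 83.9% of the peaks of a library overlapped a peak of its replicate, and between 64.1% and 67.7% overlapped a peak of a library of the other time point. The ranges did not overlap in these 4 comparisons within and 8 between time points, which share 4 libraries. The other receptors were read in the same way with 4555 peaks for each library, the size of the smallest. LXRA gave 82.8% to 83.4% within and 59.2% to 61.8% between time points, LXRB 70.2% to 76.9% and 57.0% to 62.9%, and PPARG 80.2% to 83.5% and 75.7% to 78.1%. The gap between replicates and time points was thus 22.1 points in the medians for LXRA, 14.2 for LXRB and 4.32 for PPARG, with a different agonist for PPARG. The gaps were not tested against each other. They rest on the strongest peaks alone, except in LXRB replicate 2 at 2 h, where 4555 were all its peaks. Over all sites, 86.9% of LXRB sites of 2 h had a 48 h site, and 36.8% of those of 48 h had a 2 h site. For PPARG these shares were 55.6% and 93.2%, against 64.1% and 67.2% for LXRA.

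**Figure D1:**
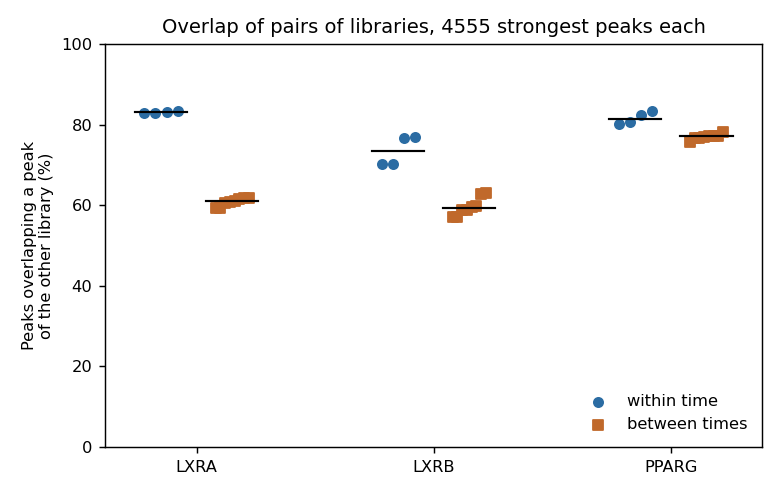
Share of the 4555 strongest peaks of a library (y axis, percent) that overlap one of the 4555 strongest peaks of another library of the same receptor, for LXRA, LXRB and PPARG (x axis). Circles are pairs of replicates, squares are pairs of 1 library from 2 h and 1 from 48 h, and lines are medians. LXRA pairs lie at 82.8% to 83.4% within and 59.2% to 61.8% between time points.

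Strong sites were more often found at both times. Sites were ranked by the lower score of their 2 replicates and divided into 5 groups of equal size. In the group with the lowest scores, 40.1% of 2 h sites and 40.5% of 48 h sites had a counterpart at the other time. In the group with the highest scores the shares were 92.4% (91.5 to 93.3) and 95.4% (94.6 to 96.0). No peak had a score below 100. At 2 h the lowest group ran from 100 to 130 and the highest from 461 to 3100. A smaller fall in score thus removes a weak site than a strong one. The part of this cutoff in the rise of the shares was not tested. Strong sites of 1 time point remained all the same, as 278 of the 3678 top sites of 2 h and 161 of the 3465 top sites of 48 h had no counterpart. Sites of both times were also wider, with a median of 1047 bp in the 2 h span against 865 bp for 2 h only and 918 bp for 48 h only.

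**Figure D2:**
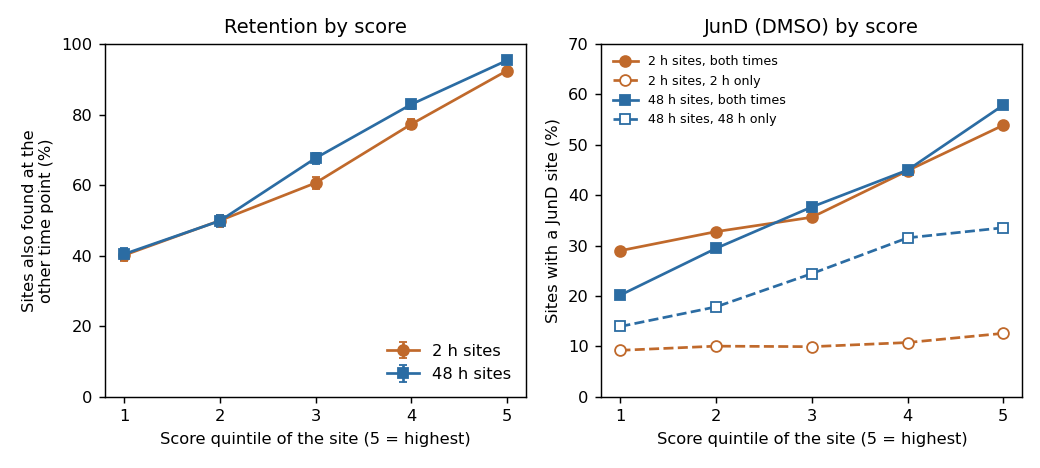
Left, share of LXRA sites also found at the other time point (y axis, percent, with 95% Wilson intervals) by score group of the site (x axis, 5 is highest). Right, share of sites with a JunD site of DMSO cells (y axis, percent) for sites of both times (filled) and of 1 time only (open). Retention rises from 40.1% to 92.4% for 2 h sites, and among sites of 48 h only the JunD share rises from 14.0% to 33.5%.

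The strongest sites of each class, named by their lowest rank within the libraries, are given by hg19 coordinates. Gene annotation and sequence of that build were not used here. The 3 leading sites of 2 h only were chr5:67174547-67177077, chr1:192481244-192482565 and chr5:14976680-14978317. The first had scores of 3100 and 2300 at 2 h, no peak in 48 h replicate 1 and 181 in 48 h replicate 2. The second had 2406 and 1744 at 2 h, and 158 in 48 h replicate 2 alone. The third had 2818 and 1590 at 2 h, and 216 in 48 h replicate 2 alone. All 3 thus kept a weak peak in the larger 48 h library. The first overlapped JunD, RNAP2 and H3K27ac sites of DMSO cells, the second none of these, and the third only an RNAP2 site. Of the 3, only the first overlapped an LXRB site of 2 h, and none overlapped one of 48 h.

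The 3 leading sites of 48 h only were chr2:33090013-33091473, chr11:15074324-15075733 and chr2:134924172-134925343. Their scores at 48 h were 2197 and 3100, 1681 and 2332, and 1469 and 1702, and none held a peak in either 2 h library. Each overlapped a JunD site and an RNAP2 site of DMSO cells and an LXRB site of 48 h, and none overlapped an H3K27ac site of DMSO cells. The first also overlapped an LXRB site of 2 h, and the others did not. At both times, 27 sites had a score of 3100 or more in all 4 libraries. This is near the ceiling of the peak caller, so the order among them has no meaning. The first 3 in genome order were chr1:162254488-162256085, chr1:204140511-204141732 and chr1:233247938-233250566, all of which overlapped RNAP2 sites in DMSO and LXRB sites at 2 h and 48 h.

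The score could be compared at the 11609 sites with a peak in all 4 libraries. Log2 scores were centred on each library's median and fitted with limma, and calls were made where the p adjusted by Benjamini and Hochberg was under 0.05. By this test 1689 sites (14.5% of those tested) were higher at 48 h and 1640 (14.1%) were lower. Both 48 h scores lay above both 2 h scores at 3950 sites (34%) and below both at 3560 sites (30.7%). The median size of the difference among called sites was 1.27 (log2). Between replicates the log2 scores had a Pearson correlation of 0.90 at 2 h and 0.89 at 48 h, and between time points of 0.60 to 0.65, over 11609 sites that share their libraries. The calls depend on the centring, since without it 28 sites were higher and 33 lower. Without 48 h replicate 1, 916 sites were higher and 1184 lower. The medians of the libraries at these sites were 9.05 and 8.15 at 2 h and 8.14 and 8.89 at 48 h (log2).

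The largest rise was at chr10:74031699-74038813, where scores were 251 and 139 at 2 h and 3100 and 3100 at 48 h. The difference of centred log2 scores was 4.14, but both 48 h scores are at the ceiling, so no error is given for it and it may be too small. The span of 7115 bp overlapped JunD, RNAP2 and H3K27ac sites in DMSO and LXRB sites at both times. The next were chr9:112578503-112579356, with 100 and 104 at 2 h and 818 and 1589 at 48 h (a difference of 3.57 ± 0.36, SE, limma adjusted p = 6.69e-06), and chr6:141869704-141870831, with 182 and 102 at 2 h and 1188 and 1462 at 48 h. Both overlapped LXRB sites at 48 h and not at 2 h. The largest fall was at chr13:76583250-76584564, where scores were 1707 and 1006 at 2 h and 108 and 103 at 48 h, a difference of -3.55 ± 0.33 (SE, limma adjusted p = 4.24e-06). It was followed by chr1:27240201-27241271, with 2114 and 1539 at 2 h and 112 and 243 at 48 h, and by chr9:72708537-72709383, with 1701 and 1281 at 2 h and 107 and 170 at 48 h. None of the 3 falling sites overlapped an LXRB site at either time.

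JunD sites of DMSO cells, 8960 in all, were most frequent at LXRA sites of both times. A JunD site lay at 41.8% (41.0 to 42.7) of the sites of both times, at 19.6% (18.6 to 20.7) of those of 48 h only and at 9.95% (9.25 to 10.7) of those of 2 h only. The peaks of the single JunD libraries gave 22.2% against 12.8% for 48 h only and 2 h only in replicate 1 and 28.7% against 14.1% in replicate 2. In all 4 pairings of a 2 h with a 48 h library, at equal numbers of peaks, gained peaks had the larger share, by 7.46 to 13.2 points. The order also held within each of the 5 score groups, from 14.0% against 9.22% in the lowest to 33.5% against 12.6% in the highest. Where both were present, the centres of the LXRA and JunD sites lay a median of 57 bp apart at 2 h only, 62.5 bp at both times and 57.5 bp at 48 h only.

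Over all sites of a time point, 30.4% had a JunD site at 2 h and 34.6% at 48 h. With equal numbers of peaks the libraries were at 30.7% and 30.4% at 2 h and 33.3% and 34.5% at 48 h (exact permutation test over 2 and 2 libraries, two-sided p = 0.333, the smallest possible). With all peaks they were at 22.7% and 29.5% at 2 h and 33.3% and 25.6% at 48 h, and the groups overlapped, the share being lower in the library with more peaks. Without 48 h replicate 1 the difference of 4.20 points between time points turned to -4.76. Among the sites present in all 4 libraries, 50.1% (47.8 to 52.5) of those called higher at 48 h, 37.1% (34.8 to 39.4) of those called lower and 41.2% (40.2 to 42.3) of those not called had a JunD site.

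**Figure D3:**
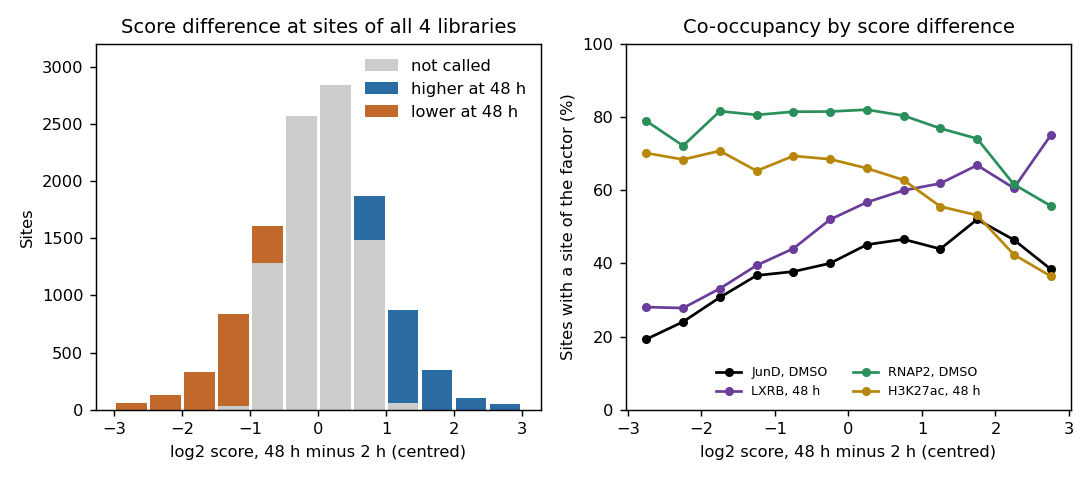
Left, number of sites (y axis) by the difference of centred log2 scores between 48 h and 2 h (x axis, bins of 0.5), for the 11609 sites of all 4 libraries, with 1689 called higher and 1640 called lower. Right, share of these sites (y axis, percent) that overlap sites of JunD, LXRB, RNAP2 or H3K27ac by the same bins. The outermost bins also hold larger differences, and have only 57 (lowest) and 52 (highest) sites. The LXRB share at 48 h runs from 28.1% to 75% and that of JunD from 19.3% to 38.5%, with its highest value, 52.0%, between differences of 1.5 and 2.

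RNAP2 sites of DMSO cells lay at 80.4% of the LXRA sites of both times, at 56.6% (55.3 to 57.9) of those of 48 h only and at 43.8% (42.6 to 45.0) of those of 2 h only. The single RNAP2 libraries gave 63.6% against 48.3% for 48 h only and 2 h only in replicate 1, and 60.6% against 55.7% in replicate 2. RNAP2 sites after 48 h of GW3965 lay at 65.9%, 37.4% and 27.2% of the same classes. All classes thus overlapped RNAP2 sites less often at 48 h of agonist than in DMSO. The RNAP2 sites themselves were fewer and narrower at 48 h. They numbered 26581 with a median width of 1367 bp in DMSO, and 24895 with 1155 bp at 48 h. The part of this in the lower shares was not tested. Of LXRA sites with RNAP2 in DMSO, 78.5% of those of both times, 62.9% of those of 48 h only and 52.4% of those of 2 h only still had RNAP2 at 48 h. Over all RNAP2 sites of DMSO cells, 70.7% were found again at 48 h, and of those without any LXRA peak 75.3%. Both of these shares count RNAP2 sites in place of LXRA sites. Only 103 of the 2464 sites of 48 h only without RNAP2 in DMSO had it at 48 h, and 278 of 3712 of those of 2 h only. Without 2 h replicate 2 the difference between 48 h only and 2 h only was 3.78 points in DMSO and -2.43 points at 48 h, and without 48 h replicate 1 it was 19.98 and 15.3 points. In the score test the share with an RNAP2 site of DMSO was 77.1% (75.02 to 79.03) where LXRA was called higher, 82.3% (80.3 to 84.0) where it was called lower and 80.8% where it was not called.

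For H3K27ac the order of the classes was not the same in DMSO and after 48 h of GW3965, and the difference between the treatments was not tested. In DMSO an H3K27ac site lay at 54.7% of the LXRA sites of both times, 40.2% (38.9 to 41.5) of those of 48 h only and 32.8% (31.7 to 33.9) of those of 2 h only. After 48 h of GW3965 the shares were 65.5%, 40.7% (39.4 to 42.0) and 46.7% (45.5 to 47.9). Sites of 2 h only therefore had H3K27ac less often than those of 48 h only in DMSO, by 7.41 points, and more often at 48 h, by 5.96 points. The H3K27ac sites themselves were more numerous at 48 h. They numbered 19892 with a median width of 2486 bp in DMSO, and 22527 with 2468 bp at 48 h. The part of this in the higher shares was not tested. Of the sites of 2 h only without H3K27ac in DMSO, 24.1% (22.9 to 25.4) had it at 48 h, against 31.1% (29.9 to 32.4) of those of both times and 10.2% (9.22 to 11.3) of those of 48 h only. In the score test, H3K27ac after 48 h lay at 56.2% (53.8 to 58.5) of sites called higher, at 69.3% (67.1 to 71.5) of sites called lower and at 66.2% of sites not called. H3K27ac of DMSO cells lay at 48.4% (46.1 to 50.8), 54.0% (51.5 to 56.4) and 55.7% of the same groups. In the score test the order was thus the same in both treatments, unlike that of the classes. With the 20000 highest peaks of each H3K27ac library, the share of 48 h only minus that of 2 h only was 11.2 points in DMSO in place of 7.41, and -0.763 points at 48 h in place of -5.96. Without 2 h replicate 2 this difference was -6.52 points in DMSO and -15.2 at 48 h, and without 48 h replicate 1 it was 14.4 and 0.608 points, so the order was then the same in both treatments.

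**Figure D4:**
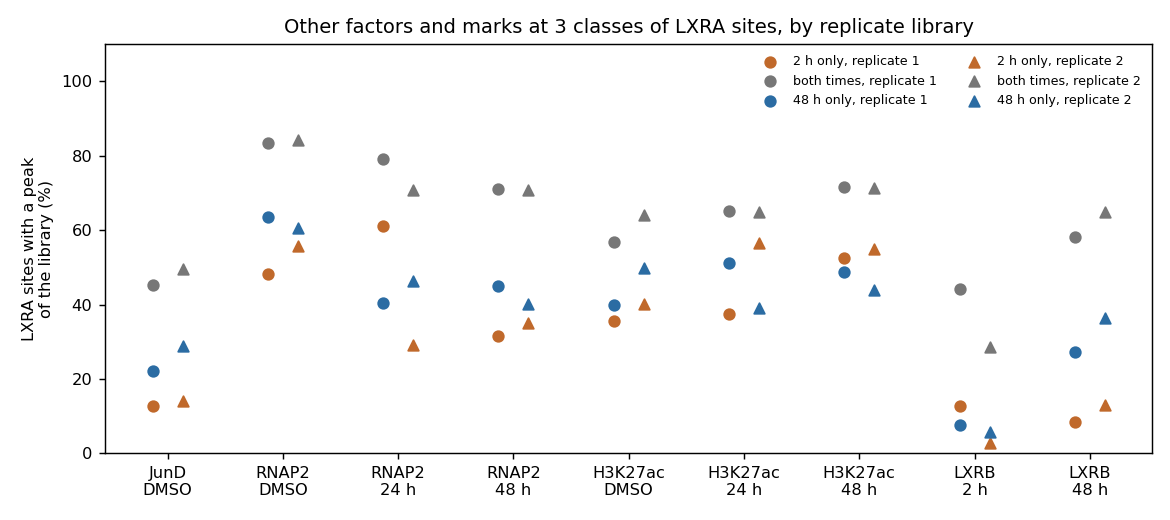
Share of LXRA sites (y axis, percent) with a peak of each library of JunD, RNAP2, H3K27ac and LXRB (x axis), for sites of 2 h only, of both times and of 48 h only. Circles are replicate 1 and triangles replicate 2. Sites of both times are highest in every library, and the order of the other 2 classes differs between the replicates of RNAP2 and H3K27ac at 24 h and of LXRB at 2 h.

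The chromosomal makeup of the libraries moved with these differences. Over all chromosomes there were 85.9 sites of 48 h only for every 100 of 2 h only, but 184 on chromosome 19, 162 on chromosome 22 and 63.1 on chromosome 4. Chromosome 19 held 2.81% and 2.60% of the LXRA peaks at 2 h and 3.22% and 3.36% at 48 h, without overlap. Of 23 chromosomes, 7 held a higher share in both 48 h libraries than in both 2 h libraries, 6 a lower share, and 10 overlapped. For every 100 peaks on chromosome 4 there were 52.1 and 46.3 on chromosome 19 at 2 h, and 63.4 and 65.6 at 48 h. In the RNAP2 and H3K27ac libraries this ratio ran from 62.1 to 146. In 4 of these 12 libraries the share of 48 h only was below that of 2 h only, and their ratios were 62.1, 64.8, 85.1 and 101, whereas the other 8 had ratios from 99.4 to 146. The part of this makeup in the results was not tested. Without chromosomes 19 and 22, a setting added after seeing the data, the share of 48 h only minus that of 2 h only was 9.88 points for JunD, 12.9 for RNAP2 in DMSO, 7.46 for H3K27ac in DMSO and -5.76 for H3K27ac at 48 h, close to the values over all chromosomes. Chromosome 22 held only 1.14% to 1.42% of the LXRA peaks of a library. This setting leaves differences on the other chromosomes in place, so it cannot decide the part of the makeup.

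**Figure D5:**
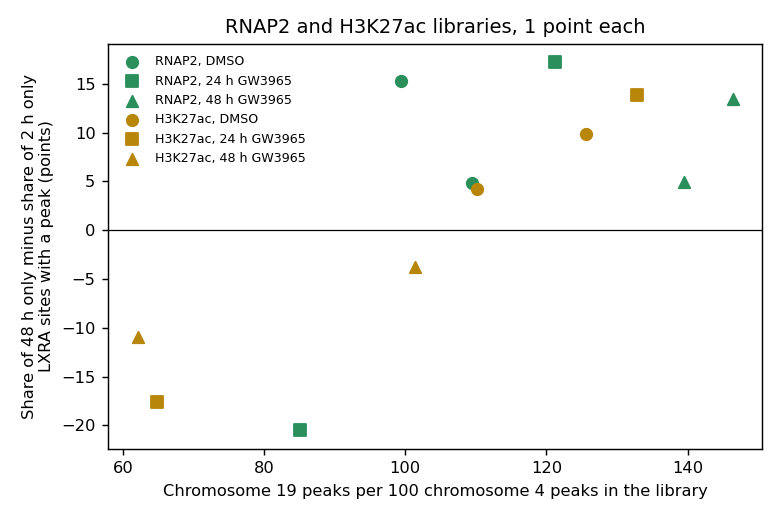
Difference between the shares of 48 h only and 2 h only LXRA sites with a peak (y axis, percentage points) against the number of chromosome 19 peaks for every 100 chromosome 4 peaks (x axis), 1 point for each RNAP2 and H3K27ac library. The 4 libraries below 0 have the ratios 62.1, 64.8, 85.1 and 101.

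LXRB, the other liver X receptor, was measured with an antibody to the protein itself. Its 3881 sites at 2 h lay largely within the LXRA sites, 81.5% overlapping an LXRA site of 2 h, and of its 9218 sites at 48 h 80.8% overlapped an LXRA site of 48 h. An LXRB site of 48 h lay at 52.7% of the LXRA sites of both times, at 21.4% (20.4 to 22.5) of those of 48 h only and at 5.44% (4.91 to 6.01) of those of 2 h only. The LXRB replicates gave 27.2% against 8.34% and 36.3% against 13.0% for 48 h only and 2 h only. Where the LXRA score was called higher at 48 h, 68.4% (66.2 to 70.6) of sites had an LXRB site of 48 h, against 43.0% (40.6 to 45.4) where it was called lower and 51.7% where it was not called. LXRB sites of 2 h lay at 28.9%, 27.9% and 24.8% of the sites called higher, called lower and not called. The LXRB replicates of 2 h differed in order, with 7.73% against 12.8% for 48 h only and 2 h only in replicate 1 and 5.81% against 2.83% in replicate 2. PPARG sites after 48 h of rosiglitazone lay at 15.9% of LXRA sites of 48 h only and 8.64% of those of 2 h only. For PPARG sites after 2 h of rosiglitazone the order was the same, at 25.7% and 19.6%. The median distance to the nearest other LXRA site of both times was 20.3 kb for sites of both times, 34.4 kb for those of 2 h only and 44.9 kb for those of 48 h only, all measured to the same 11784 sites and without a test.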

How the data were processed

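ChIP-seq peaks and RNA-seq counts of HT29 cells were used. For ChIP-seq the submitters' processing notes name Bowtie, MACS and hg19, and the authors called peaks in each replicate against input. The deposited score is the log10 of the caller's p multiplied by -10. For RNA-seq the authors deposited raw counts per gene, and the notes name TopHat, Cufflinks and hg19. Totals in the 16 libraries used ran from 30834003 to 51332656 counts, and CPM values here are counts divided by these totals, with no other scaling.

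Peaks on 23 chromosomes were kept, which left out 1 mitochondrial peak each of LXRA at 2 h and RNAP2 at 24 h, and intervals were joined with numpy 2.4.6, scipy 1.17.1 and pandas 2.3.3 under Python 3.11.15. Log2 scores were fitted with limma 3.58.1 in R 4.3.3 with a trended prior, and the fit was tested on simulated data. A first simulation took the observed SD of each site as its true SD, and no call was made. It was replaced by a simulation with variances drawn from the fitted prior. There, large changes were mostly recovered and small changes mostly missed. Shares carry 95% Wilson intervals. Plots were drawn with matplotlib 3.10.9. Nothing in the labels states that replicates came from separate cultures, so their spread may be technical. Leading sites were the 3 strongest of each class and the 3 largest rises and falls, none on chromosome 8. Members and lists were chosen with earlier results of these data known. Alternatives covered the overlap, score limit, number and width of peaks, scaling, the replicate block and leaving out libraries. Motifs and neighbouring genes were not analysed here, since no hg19 sequence or annotation was used.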

Additional observations from a re-analysis of the deposited data

Results flagged for a closer look

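The H3K27ac libraries of DMSO cells and of cells after 48 h of GW3965 lay on opposite sides in how often they covered LXRA sites of 48 h only and of 2 h only. The share of 48 h only minus that of 2 h only was 4.26 and 9.82 points in the DMSO replicates and -3.74 and -10.9 points in the 48 h replicates. The difference between the treatments was not tested. With the 20000 highest peaks of each library the DMSO replicates gave 5.83 and 13.3 points and the 48 h replicates 1.56 and -7.81 points, so 48 h replicate 1 changed sides while both 48 h replicates stayed below both DMSO replicates. These libraries held 110 and 126 peaks on chromosome 19 for every 100 on chromosome 4 in DMSO, and 101 and 62.1 at 48 h, and the part of this in the difference was not tested.

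JUND RNA was at 89.8 CPM in 1 of the 4 libraries with GW3965 at 24 h, far below the other 3 for the spread of the group, which reached 137 CPM. The same library, replicate 1, was also lowest of its group for RXRA, at 209 CPM against 275 to 327, and for CDX1 (2.39 against 3.78 to 3.86) and CDX2 (9.32 against 13.6 to 15.2). Other genes went the other way. This library was highest of its group for KRT20 (512 CPM against 413 to 447), KRT8, EPCAM, CDH1, CDH17 and PPARG. About 1 group of 4 samples in 20 shows a gap like that of JUND by chance.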

How the results depend on the processing

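Of 166 recomputed values, 111 stayed within the spread between replicates (or, for counts, within 1.5 times), 46 moved and 9 changed direction. The JunD difference between sites of 48 h only and 2 h only, 9.66 points, lay between 7.67 and 15.8 points in every setting tried, and the RNAP2 difference in DMSO, 12.8 points, between 3.78 and 19.98. Leaving out 1 LXRA library turns the sites of its time point into all peaks of the other.
With single libraries left out, 2 h sites numbered 18389 to 30953 and 48 h sites 17326 to 29263. Retention lay between 47.9% and 80.4% of 2 h sites and between 50.5% and 83.3% of 48 h sites, and median widths between 829 and 972 bp and between 878 and 1059 bp. The JunD difference between time points lay between -4.76 and 11.9 points, and that between classes between 8.11 and 10.3. For RNAP2 in DMSO these ranges were -4.06 to 14.2 and 3.78 to 19.98 points, and for RNAP2 at 48 h -4.56 to 12.0 and -2.43 to 15.3. For H3K27ac in DMSO they were -0.650 to 5.25 and -6.52 to 14.4 points, and for H3K27ac at 48 h -6.36 to 3.86 and -15.2 to 0.608. Of the sites tested for score, 916 to 1449 were higher and 1149 to 1304 were lower. The lone library of a time point is then assumed to vary like the others. The changes of direction came without 2 h replicate 2 or 48 h replicate 1, the smaller libraries, and in 1 case with fewer mark peaks (below).
With a score of at least 200 there were 9906 and 9069 sites with median widths of 1087 and 1179 bp, 61.1% of 2 h sites were kept, and 791 sites were higher and 861 lower. The class differences were then 15.8 points for JunD, 5.10 and 3.53 for RNAP2 in DMSO and at 48 h, and 2.68 and -9.43 for H3K27ac. With equal numbers of peaks, 66.0% of 2 h sites were kept, their median width was 1016 bp and the JunD difference between classes was 12.9. With 300 bp about each centre retention was 58.7% and 63.1%, and with any peak of the other time point 81.5% and 84.0%. With peaks of either JunD replicate the class difference was 14.5 points. With the 20000 highest peaks of each mark library, chosen after seeing the data, the class differences were 13.3 points for RNAP2 at 48 h and 11.2 and -0.763 for H3K27ac in DMSO and at 48 h, and the H3K27ac difference between time points at 48 h was 0.128. The cause of these changes was not tested.
Without centring 28 sites were higher and 33 lower, while quantile normalization gave 1753 and 1764. With the replicate number as a block 1484 were higher and 1479 lower. Deviations of same-numbered libraries had a correlation of -0.28. The larger library was replicate 1 at 2 h and replicate 2 at 48 h, so this value cannot show whether the numbers pair the samples. The crossed pairing, chosen after seeing the data, gave 2353 higher and 2205 lower. The alternatives planned for genes near the sites were not run, since no hg19 annotation was used.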
